A study of Rattus norvegicus with 56 samples.

Results

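The genes described are 10 rat genes of the actin cytoskeleton that are known targets of serum response factor (SRF), namely Actb, Actg1, Actn1, Flna, Tpm1, Tagln, Zyx, Vcl, Csrp1 and Myl9. They were found by symbol in the 30 min table of TPM, a measure of transcript abundance that is scaled to gene length and has the same total in every library, and carried to the 3 h table by Ensembl gene ID, and all 10 of 10 were present among the 32883 genes of the tables. The data come from tubules dissected by hand from kidneys of male Sprague-Dawley rats. In the obstructed animals (unilateral ureteral obstruction, UUO) the left ureter was tied off with silk beside the renal pelvis, and sham animals had the same operation without the tie. Cortical collecting duct (CCD), which fine-tunes water and salt excretion, and cortical thick ascending limb (cTAL), which reabsorbs salt, were each taken 30 min and 3 h after surgery, with 4 numbered UUO and 4 numbered sham replicates per segment and time. Age is not stated in the labels, and no genotype or further agent is given for any group. A dissected tubule holds all the cells of its wall, so fewer cells of a type and less RNA per cell cannot be told apart. Nothing in the labels says that each number is a separate animal, so the p-values measure only the spread between numbered samples, which may be technical.

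Actin filaments carry the tension that a stretched epithelial cell bears, and their ends are anchored in focal adhesions, where integrins hold the matrix. When monomeric actin is built into filaments, the cofactors MRTF-A and MRTF-B are released and move to the nucleus. There they switch on SRF, which binds a short A/T-rich element called the CArG box in the genes of actin itself and of many actin-binding proteins. A second class of SRF cofactors, the ETS-domain factors Elk1, Elk3 and Elk4, serves the immediate early genes such as Fos and Egr1. In the kidney this system is best known from fibrosis and from tubule cells that lose their shape, and ureteral obstruction is a common model of both.

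Of the 10 genes, RefSeq promoters (GRCr8, 250 bases before to 50 after the annotated start) were matched for 7 genes, with 8 promoters, and those of Actb, Tagln and Myl9 were not used here. Promoters of Zyx and Csrp1 are shown because these genes rose in both segments at 3 h, and that of Actg1 because it holds an exact CArG box although its level did not rise. Each is written 5′ to 3′ on the strand of the gene, with an exact or 1-mismatch CArG box in capitals, at chr13:49709678-49709977 (Csrp1, plus strand), chr4:72203750-72204049 and chr4:72204185-72204484 (both Zyx starts, plus strand) and chr10:106120902-106121201 (Actg1, minus strand).
Csrp1 promoter: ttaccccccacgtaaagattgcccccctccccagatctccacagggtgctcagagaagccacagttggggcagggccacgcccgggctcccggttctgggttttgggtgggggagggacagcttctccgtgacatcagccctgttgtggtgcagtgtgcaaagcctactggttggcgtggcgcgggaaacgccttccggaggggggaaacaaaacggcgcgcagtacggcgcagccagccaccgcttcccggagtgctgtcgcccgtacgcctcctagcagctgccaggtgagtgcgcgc
Zyx promoter 1: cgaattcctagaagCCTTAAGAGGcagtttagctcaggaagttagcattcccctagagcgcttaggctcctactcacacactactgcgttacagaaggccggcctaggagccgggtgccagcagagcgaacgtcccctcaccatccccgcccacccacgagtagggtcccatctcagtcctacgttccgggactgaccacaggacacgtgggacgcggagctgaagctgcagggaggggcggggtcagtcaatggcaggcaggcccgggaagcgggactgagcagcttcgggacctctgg
Zyx promoter 2: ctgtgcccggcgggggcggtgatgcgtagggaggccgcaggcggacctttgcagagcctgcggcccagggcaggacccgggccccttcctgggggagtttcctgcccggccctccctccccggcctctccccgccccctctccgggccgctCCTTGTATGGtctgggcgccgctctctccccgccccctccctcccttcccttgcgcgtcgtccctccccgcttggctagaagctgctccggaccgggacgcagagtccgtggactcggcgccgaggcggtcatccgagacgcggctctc
Actg1 promoter: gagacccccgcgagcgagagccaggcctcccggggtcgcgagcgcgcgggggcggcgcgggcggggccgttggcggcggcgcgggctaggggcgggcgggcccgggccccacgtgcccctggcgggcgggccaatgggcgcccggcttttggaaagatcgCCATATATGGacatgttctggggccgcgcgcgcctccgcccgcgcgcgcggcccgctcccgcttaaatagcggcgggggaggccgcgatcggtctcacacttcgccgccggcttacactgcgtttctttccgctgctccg

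In Actg1 the exact box CCATATATGG began 90 bases before the start. The 2 Zyx promoters held CCTTAAGAGG at 236 and CCTTGTATGG at 99 bases before their starts, each 1 base away from the CArG consensus. Tpm1 held 2 such near matches before its start and Flna 2 that overlap each other just after it, whereas the windows of Csrp1, Vcl and Actn1 held neither form. The box reads the same way on both strands, so a single scan covers both. Across all 33469 RefSeq promoters, 1.637% held an exact box and 21.26% an exact or near box. Among 87 promoters of the other actin and SRF pathway genes described further on, the shares were 9.195% and 27.59%. The genes with an exact box there were Acta1, Cnn2, Egr1, Egr2, Fhl2, Rnd3 and Srf. The pathway lists were made to include SRF and known SRF targets, so a share above that of all promoters may follow from the choice of genes. These matches are letters only, and a window without a match says nothing of SRF binding elsewhere.

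Both segments carried the transcripts that define them. Summed TPM of 8 principal cell markers, which mark the CCD, were 5503 to 18653 in the CCD replicates and 52.4 to 618 in cTAL, and 5 thick ascending limb markers summed to 30497 to 70660 in cTAL. At 30 min the same 5 summed to at most 504 in CCD, but at 3 h 1 of 2 libraries of UUO replicate 4, sham replicate 1 and sham replicate 3 held over 5000 TPM of Umod, the abundant secreted protein of the thick limb. Each library had between 8744 and 11916 genes at 1 TPM or more, and the depth behind a value is unknown, since it cannot be read from TPM. No pair of the 48 libraries had identical values. Library 2 of CCD UUO replicate 2 at 30 min stood apart, with 48.5 TPM of Actg1 and 1225 TPM of Actb against 836 and 5434 TPM in library 1 of the same number.

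The 10 genes spanned more than 3 orders of magnitude on the TPM scale, which is per length and so allows levels of different genes to be set side by side. Actb, the main cytoplasmic actin, led in each of the 8 groups, from 2224 ± 368 TPM (SD, n = 4) in cTAL UUO at 3 h to 5132 ± 414 TPM in CCD sham at 30 min. Actg1, the other cytoplasmic actin, followed at 608 ± 117 to 926 ± 174 TPM in the sham groups. Its coding sequence is nearly the same as that of Actb and both have processed copies in the genome, so the division of reads between them is uncertain. Next came Tpm1, a tropomyosin that winds along the filament, and Csrp1, a LIM protein that binds filament crosslinkers, and in CCD sham at 30 min their ranges overlapped (236 to 338 and 221 to 311 TPM). Zyx and Vcl (focal adhesion proteins), Myl9 (a regulatory myosin light chain) and Flna (a filament crosslinker) lay far lower there, at means of 9.46, 7.49, 9.16 and 5.19 TPM, with ranges that overlapped from each gene to its neighbour. Tagln, an actin-bundling protein abundant in smooth muscle, and Actn1, an actin crosslinker, were lowest at 1.82 TPM each.

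**Figure D1:**
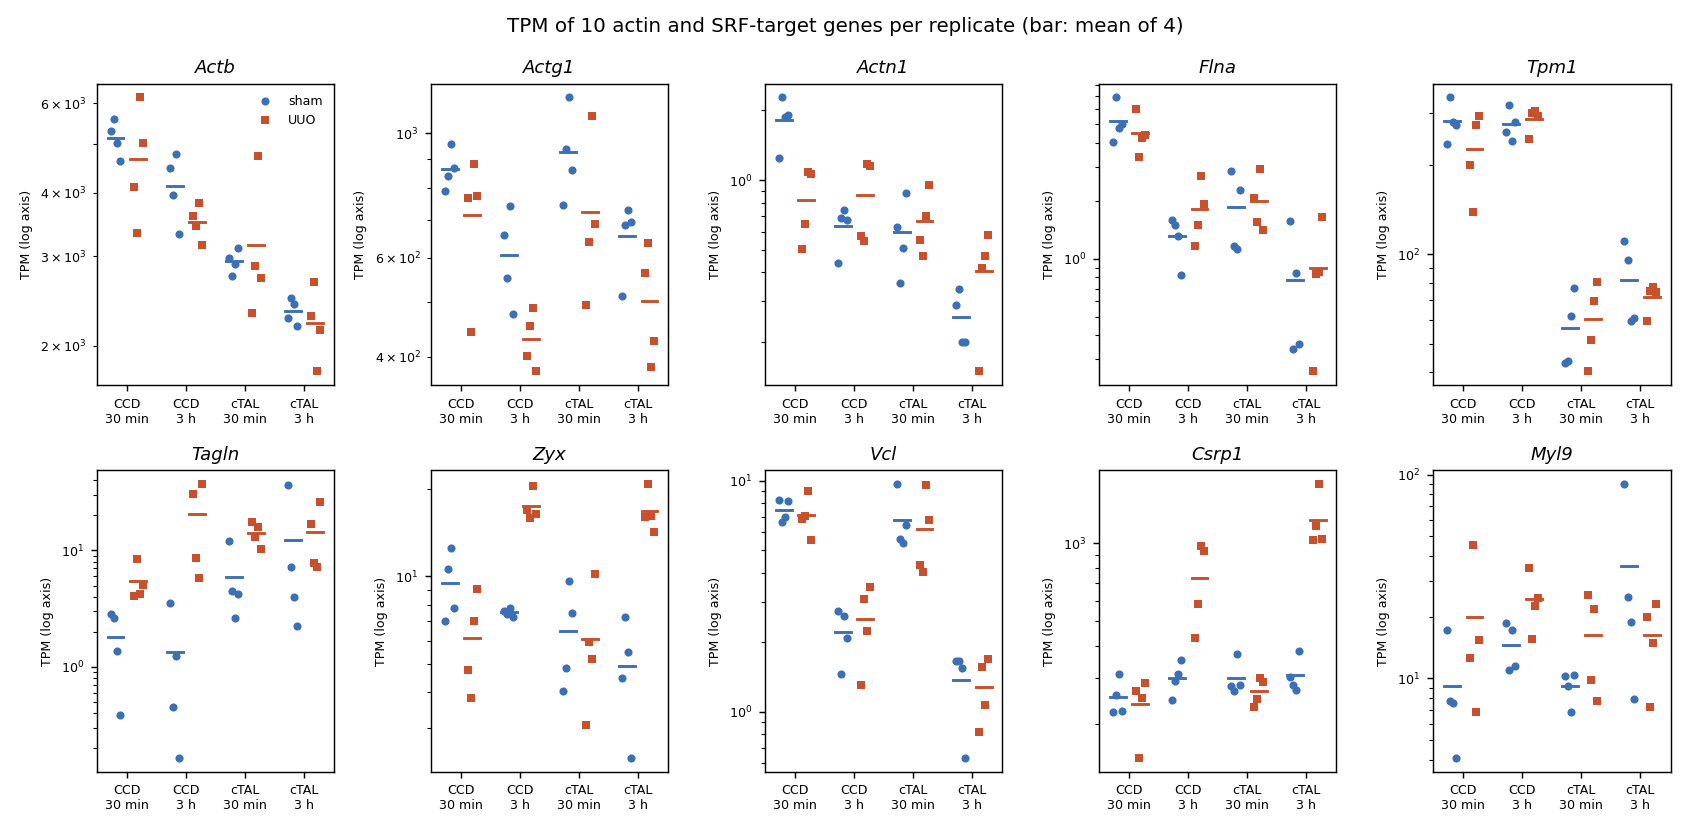
TPM (log axis) of the 10 genes in each replicate, by segment and time, with sham as blue circles, UUO as red squares and a bar at the mean of 4. At 3 h the UUO squares of Zyx and Csrp1 lie above all sham circles in both segments, and those of Tagln do so in CCD.

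Changes were tested with limma on log2(TPM + 1) for genes that reached 1 TPM in 4 or more of the 8 replicates compared, the p-values were adjusted over all such genes by the method of Benjamini and Hochberg, and a gene is said to be called where the adjusted p was under 0.05. Each CCD number had 2 libraries, whose values were averaged, and each cTAL number had 1. Without obstruction, the segments differed in which of these genes they held most of. Tpm1 was the clearest case, at 236, 338, 279.7 and 272 TPM in CCD sham and 43.1, 43.6, 62.1 and 77.2 TPM in cTAL sham at 30 min (replicates 1 to 4). All 4 CCD values were above all 4 cTAL values, and the difference within numbers was 2.32 on the log2(TPM + 1) scale (SE 0.17, adjusted p = 6.32e-05), and 1.78 at 3 h (SE 0.16, adjusted p = 5.20e-04). Actb was higher in CCD by 0.80 at both times (adjusted p = 2.81e-04 and 9.50e-04). Flna and Actn1 were higher in CCD at 30 min by 1.13 and 0.81 (adjusted p = 0.00781 and 0.00720), and Actn1 reached the filter level of 1 TPM in the CCD replicates alone. Tagln went the other way, at 5.86 ± 4.27 TPM in cTAL and 1.82 ± 1.16 TPM in CCD at 30 min (difference -1.23, SE 0.27, adjusted p = 0.00743), and at 12.4 ± 16.05 and 1.36 ± 1.54 TPM at 3 h (difference -2.09, SE 0.37, adjusted p = 0.00616). At 3 h Tagln reached 1 TPM in every cTAL sham replicate but not in CCD sham replicates 2 and 4 (0.45 and 0.165 TPM). It thus entered that test mainly through cTAL. Csrp1 was lower in CCD at 30 min by 0.25 (adjusted p = 0.0368), a call that 3 of the 4 fits leaving out a replicate did not give (adjusted p up to 0.130), and was not called at 3 h.

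Altogether 6 of 10 genes were called between the sham segments at 30 min and 3 of 9 at 3 h, where 54.9% and 38.2% of all genes tested were. Many genes differ between 2 kinds of tubule, so these shares are near the background. In these comparisons all genes tested had a median difference of 0.30 (log2) at both times, and after median-of-ratios rescaling, which brings it to 0.01 and 0.03, 3146 genes were higher and 2672 lower at 30 min in place of 4859 and 1541. At 3 h the split was 1625 higher and 1721 lower in place of 2916 and 1099. With that rescaling Actb and Tpm1 stayed higher in CCD at both times and Tagln lower, while Actg1 was also called as lower in CCD (-0.41 and -0.44, adjusted p = 0.0304 and 0.0428). Csrp1 became -0.57 at 30 min (adjusted p = 0.00125) and -0.34 at 3 h, where it was not called. Libraries of the same number were taken as 1 animal in these comparisons, which the labels do not state.

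The first comparison asked what 30 min of obstruction had done to these genes. In CCD an unadjusted p under 0.05 was held by 2 of 10 genes and by 1789 of all 11369 genes tested. By limma 0 of the 10 genes were called, and 0.0264% of all genes tested were called. That background is 3 genes, and it became 956 (949 lower) with library 1 of each number alone and 500 (495 lower) with a replicate block and UUO number 2 from library 1, whereas 0 of the 10 genes were called in either. Tagln read 2.87, 2.65, 1.37 and 0.39 TPM in the sham replicates and 4.06, 8.41, 4.25 and 5.005 TPM in the UUO replicates. Every UUO value was above every sham value, a pattern that 0.51% of all genes tested showed, but the log2 change of 1.15 (SE 0.32) had an adjusted p of 0.243. Actn1 read 1.25, 2.28, 1.88 and 1.90 TPM in sham and 0.505, 0.65, 1.08 and 1.07 TPM in UUO. Here every UUO value was below every sham value, as for 10.4% of all genes tested, and the log2 change of -0.62 (SE 0.19) had an adjusted p of 0.247. Actn1 reached 1 TPM in 6 of 8 replicates, every sham replicate among them, so it entered the test mainly through the sham arm.

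In the other 8 genes the arms overlapped in CCD at 30 min. Actb had a log2 change of -0.27 and Actg1 one of -0.60, with 95% intervals from -0.78 to 0.24 and from -1.50 to 0.31. The lowest UUO replicate of both was number 2, which holds the library that stood apart. With that number taken from its library 1 alone, Actg1 had a change of -0.09 and Actb one of 0.00, while Tagln had one of 1.43 (adjusted p = 0.597, 0.999 and 0.185). Over all genes tested the median change was -0.31, or -0.02 with median-of-ratios rescaling, which turned the signs of Actb (0.09), Vcl (0.24), Flna (0.08) and Csrp1 (0.12), none of them called. Myl9 ranged from 4.07 to 17.2 TPM in sham and from 6.83 to 45.0 TPM in UUO (log2 change 0.92, adjusted p = 0.380). Zyx had a log2 change of -0.59 and Tpm1 one of -0.39 (adjusted p = 0.335 and 0.401).

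In cTAL at 30 min 0 of 9 genes tested were called by limma, and 0.0091% of all 10993 genes tested were called. An unadjusted p under 0.05 was held by 250 of the 10993 and by 1 of the 9. That gene was again Tagln, at 12.2, 4.46, 2.62 and 4.21 TPM in sham and 17.6, 13.04, 15.99 and 10.3 TPM in UUO. Only sham replicate 1 reached into the UUO range, and the log2 change of 1.302 (SE 0.37) had an adjusted p of 1.00. Markers of other cells were also unequal between these arms. The summed level of 9 pericyte and fibroblast markers was 61.2 ± 52.2 TPM with obstruction and 14.8 ± 5.02 TPM without. UUO replicates 1 to 4 held 106, 20.8, 107 and 11.5 TPM of it. Red cell sums were 1728 ± 1816 and 478 ± 450 TPM, and platelet sums 17.5 ± 12.6 and 5.27 ± 4.37 TPM. Smooth muscle sums (33.1 and 35.5 TPM) and macrophage sums (168 and 171 TPM) were slightly lower with obstruction. The part of these cells in the Tagln values was not tested. For the actins, the crosslinkers and the adhesion genes the changes lay between -0.39 (Actg1) and 0.09 (Tpm1 and Flna), and Csrp1 was at 301 ± 47.9 TPM in sham and 268 ± 31.6 TPM in UUO. Myl9 had a log2 change of 0.62 (SE 0.36), at means of 9.17 TPM in sham and 16.3 TPM in UUO. Actn1 stayed under 1 TPM in every replicate and was not tested.

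**Figure D2:**
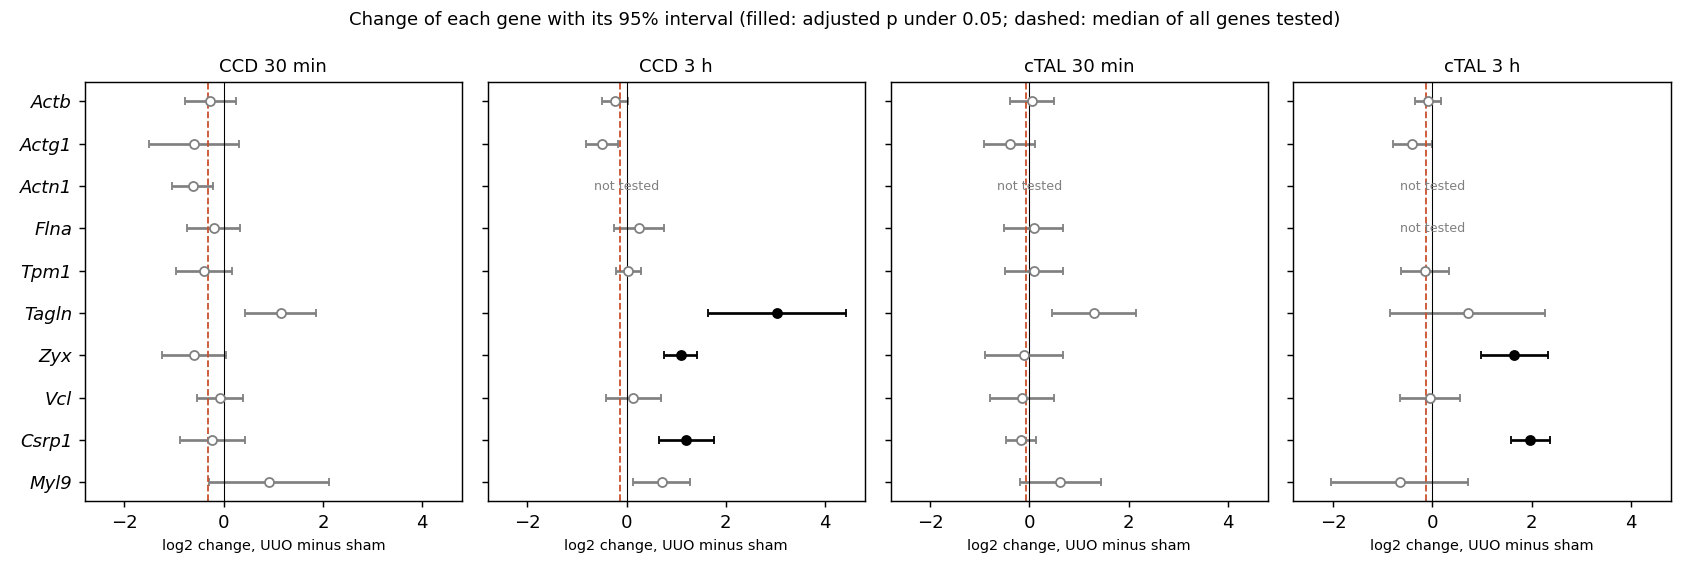
Log2 change of each gene, UUO minus sham, on the log2(TPM + 1) scale with its 95% confidence interval in 4 panels by segment and time, filled where the adjusted p was under 0.05, with the median of all genes tested as a dashed line. The filled points are Tagln, Zyx and Csrp1 in CCD at 3 h and Zyx and Csrp1 in cTAL at 3 h, and genes below the filter are marked as not tested.

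After 3 h of obstruction 3 of the 9 genes tested were called higher in CCD, namely the adhesion protein Zyx, the LIM protein Csrp1 and Tagln, and none was called lower. Zyx (ENSRNOG00000017354) read 7.57, 7.44, 7.79 and 7.25 TPM in sham and 17.0, 15.96, 20.6 and 16.4 TPM in UUO. The sham values lay within a span of less than 1 TPM, and the lowest UUO value was more than 8 TPM above them. The log2 change was 1.10 (SE 0.15, adjusted p = 0.00531), and it lay between 0.99 and 1.22 under all other settings tried. Csrp1 (ENSRNOG00000008937) read 247, 292, 313 and 354 TPM in sham and 429.6, 582, 981 and 930.5 TPM in UUO. Again the arms did not overlap, but the UUO replicates were spread over a wider range than the sham replicates (SD 268 and 44.8 TPM), and the log2 change was 1.20 (SE 0.25, adjusted p = 0.0170).

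Tagln (ENSRNOG00000017628) read 3.57, 0.45, 1.24 and 0.165 TPM in sham and 30.8, 8.59, 5.84 and 37.1 TPM in UUO. The arms did not overlap, UUO replicates 1 and 4 were far above 2 and 3, and in CCD at 3 h Tagln had the largest spread of the 10 genes relative to its mean in either arm. The log2(TPM + 1) change was 3.02 (SE 0.62, adjusted p = 0.0170), which understates the ratio because the sham levels are near 1 TPM. Tagln reached 1 TPM in all 4 UUO replicates and in only 2 sham replicates, so it entered the test through the UUO arm. The calls of Csrp1 and Tagln were lost without sham replicate 2 (adjusted p = 0.0511 and 0.0527, the highest over all settings, with the lowest at 0.00472 and 0.0126), and the Zyx call was kept in each of 8 fits without 1 replicate. All 3 calls held with library 1 of each number alone and with library 2 alone.

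These 3 were of 9 genes tested, all 3 higher and without overlap, where limma called 13% of 10530 genes, 5% as higher and 8.04% as lower, and 6.31% were higher without overlap. With median-of-ratios rescaling, which moves the median of all genes from -0.14 to -0.01, 703 genes were higher and 463 lower in place of 526 and 847, and the 3 changes became 1.22, 1.35 and 3.11, all called.

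The actins themselves did not rise in CCD. Actb (ENSRNOG00000034254) read 4472, 3954, 4762 and 3315 TPM in sham and 3601, 3440.3, 3819 and 3156 TPM in UUO, with a log2 change of -0.23 (95% interval -0.50 to 0.04). Its 2 arms overlapped. Actg1 (ENSRNOG00000036701) read 658, 553, 743 and 477 TPM in sham and 400.5, 454, 488 and 377 TPM in UUO. Only sham replicate 4 fell within the UUO range, and the log2 change of -0.49 (SE 0.14) missed the threshold by little (adjusted p = 0.0536). It passed with a filter of 5 TPM, with the replicate number as a block and without UUO replicate 3 or sham replicate 4 (adjusted p = 0.0477, 0.0408, 0.0451 and 0.0418), but the rescaled change was -0.34 (adjusted p = 0.170), and over all settings the adjusted p ran from 0.0408 to 0.214.

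As a description of the balance between both actins, the ratio of Actb to Actg1 TPM was 6.41 to 7.15 in CCD sham and 7.58 to 8.99 in CCD UUO at 3 h. A ratio within a sample does not depend on the scaling, and here the arms did not overlap. In cTAL at 3 h the ranges were 3.15 to 4.43 and 4.07 to 5.05, in CCD at 30 min 5.22 to 6.72 and 5.34 to 7.53, and in cTAL at 30 min 2.50 to 4.00 and 3.96 to 4.69. The arms overlapped in these 3 comparisons, and the mean was higher in UUO in all 4. The ratio shows an unequal change and not which of the genes moved.

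The crosslinkers and the other adhesion and motor genes were not called in CCD at 3 h. Tpm1 stayed near its sham level, at 240 to 319 TPM in sham and 245 to 305 TPM in UUO, with a log2 change of 0.03 and a narrow 95% interval from -0.22 to 0.29. Vcl, which links talin and actin at the same adhesions as Zyx, had a change of 0.14 (95% interval -0.42 to 0.69) at 2.21 ± 0.582 and 2.52 ± 0.961 TPM. Flna had one of 0.25 at 1.31 and 1.82 TPM. Myl9 read 18.6, 10.97, 17.3 and 11.5 TPM in sham and 34.8, 15.7, 22.7 and 24.8 TPM in UUO. UUO replicate 2 lay within the sham range, and the change of 0.70 (SE 0.26) had an adjusted p of 0.0960. Actn1 reached 1 TPM in 2 of 8 replicates and was not tested, at means of 0.638 TPM in sham and 0.863 TPM in UUO.

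Because Tagln, Myl9 and Csrp1 are also made by smooth muscle and related cells, markers of such cells were read beside them. Of 8 smooth muscle markers only Smtn reached 1 TPM on average in CCD at 3 h. Lmod1 was listed at 0 in all 8 replicates, and Acta2, Myh11, Cnn1, Actg2 and Synpo2 had means of at most 0.350 TPM in either arm, and Des one of 0.616 TPM in UUO and 0.140 in sham. Smtn fell, from 21.9 to 6.16 TPM (log2 change -1.90, SE 0.41, adjusted p = 0.0192), so the summed level of the list was 3.27 to 12.3 TPM in UUO and 19.1 to 25.4 TPM in sham. For pericytes and fibroblasts the summed level was 12.8 to 47.6 TPM in UUO replicates and 5.51 to 17.2 TPM in sham replicates. Of its 9 markers at most 3 reached 1 TPM in a replicate, and Dcn made up most of the sum, at 26.1 and 10.9 TPM (log2 change 1.10, adjusted p = 0.127).

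Blood and proximal tubule transcripts moved with the same arm. The 3 red cell markers reached sums of 1494 to 7895 TPM in UUO replicates and of 25.4 to 1187 TPM in sham replicates, 4 platelet markers to 7.05 to 17.0 and 1.39 to 4.98 TPM, and 7 macrophage markers to 73.4 to 105 and 32.2 to 62.6 TPM. The sum of 7 proximal tubule markers ranged from 417 to 2539 TPM with obstruction and from 129 to 663 TPM without. The UUO replicates with the highest Tagln, numbers 4 and 1, also held the highest red cell sums (7491 and 7895 TPM) and the highest pericyte and fibroblast sums (41.9 and 47.6 TPM). Their smooth muscle sums were likewise the highest of the arm (11.5 and 12.3 TPM), against 3.27 and 3.89 TPM in numbers 2 and 3. The part of these cells in the Tagln value was not tested. For Zyx and Csrp1 the order was another. UUO replicate 3 had the highest Zyx (20.6 TPM) and Csrp1 (981 TPM) of its arm and the lowest red cell, platelet, pericyte and fibroblast, and proximal tubule sums (1494, 7.05, 12.8 and 417 TPM), but the highest macrophage sum (105 TPM). The part of macrophages in the Zyx and Csrp1 values was not tested. The principal cell markers, of the duct's own cells, moved the other way, at sums of 15907 to 18653 TPM in sham and 5503 to 10052 TPM in UUO, with 5 of 8 called lower. Intercalated cells also belong to the duct, and their 7 markers did not fall as a sum. These read 4342 to 6663 TPM in sham and 4381 to 6897 TPM in UUO, highest in UUO replicate 3, with 0 of 7 called.

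**Figure D3:**
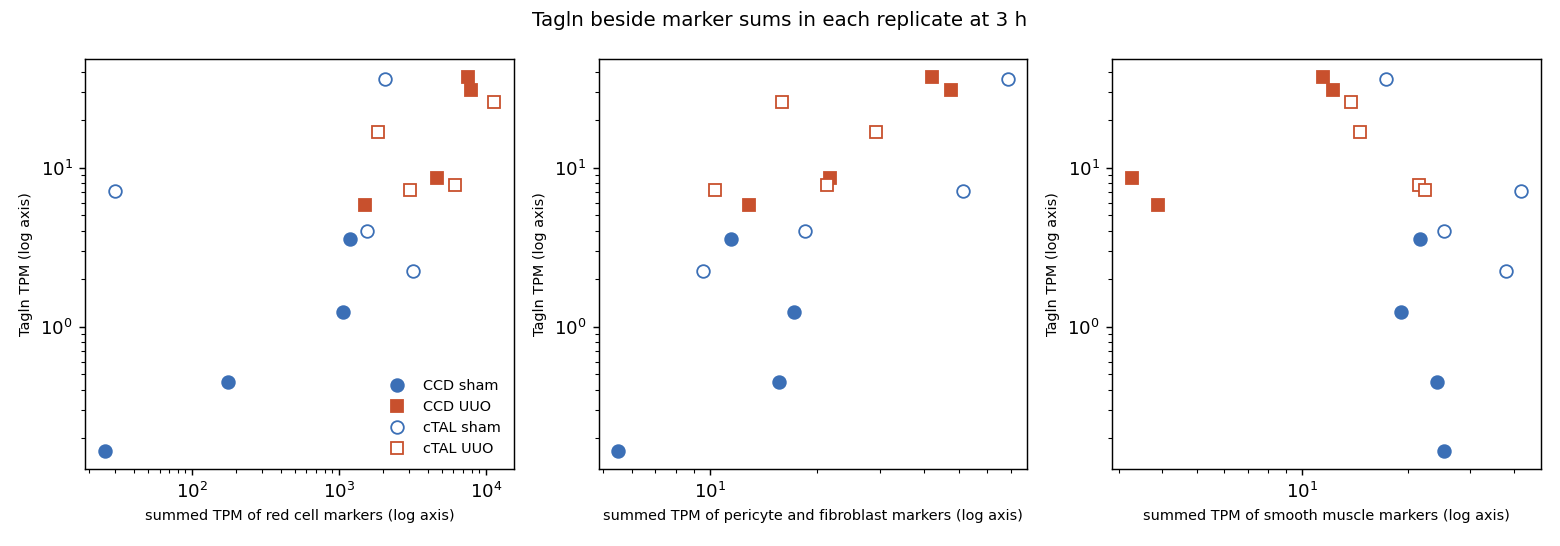
Tagln TPM in each replicate at 3 h against the summed TPM of red cell, pericyte and fibroblast, and smooth muscle markers (all log axes), with CCD filled, cTAL open, sham as circles and UUO as squares. The 2 CCD UUO replicates with the highest Tagln read 30.8 and 37.1 TPM. They are also the highest of that group in each of these sums, although smooth muscle sums are lower in CCD UUO than in CCD sham.

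In cTAL after 3 h Zyx and Csrp1 were called higher, and none of the 8 genes tested was called lower. Csrp1 read 303, 281, 269.7 and 383 TPM in sham and 1033, 1169.8, 1698 and 1043 TPM in UUO. The lowest UUO value was more than 2 times the highest sham value, and the log2 change was 1.98 (SE 0.17, adjusted p = 3.35e-04). It was kept in each of 8 fits without 1 replicate, where it lay between 1.81 and 2.08. Zyx read 4.47, 7.26, 5.50 and 2.36 TPM in sham and 16.02, 20.8, 16.1 and 14.2 TPM in UUO. The arms again did not overlap, and the log2 change of 1.66 (SE 0.31, adjusted p = 0.0113) was likewise kept in all 8 such fits. By mean level Csrp1 stood below Actb and Actg1 in both sham groups at 3 h and above Actg1 in both UUO groups.

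The other 6 genes tested in cTAL at 3 h were not called, where limma called 11.7% of 10023 genes, 4.06% as higher and 7.64% as lower, and 5.68% were higher without overlap. Rescaling by median of ratios gave 492 genes higher and 414 lower in place of 407 and 766, moved the median of all genes from -0.12 to 0.01, and put Zyx at 1.78 and Csrp1 at 2.13, both called. Actg1 had a log2 change of -0.40 (adjusted p = 0.169) and Actb one of -0.09 (95% interval -0.35 to 0.18), which became -0.25 and 0.06 after rescaling. Tpm1 was at -0.14 and Vcl at -0.04, with 95% intervals from -0.62 to 0.34 and from -0.65 to 0.57, and both signs turned with rescaling (0.01 and 0.04). Flna and Actn1 reached 1 TPM in 2 and 0 of 8 replicates and were not tested.

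Tagln was not called in cTAL at 3 h, and its arms overlapped widely. It read 36.3, 7.16, 3.98 and 2.23 TPM in sham and 16.8, 7.82, 7.28 and 25.9 TPM in UUO (log2 change 0.71, 95% interval -0.85 to 2.27). The sham value of 36.3 TPM belongs to replicate 1, which also held 89.9 TPM of Myl9 against 7.89 to 25.1 TPM in the other sham replicates. In that replicate endothelial markers summed to 190.2 TPM, pericyte and fibroblast markers to 68.5 TPM and principal cell markers to 618 TPM, each the highest of the 4. Platelet markers were likewise highest there (24.8 TPM). Smooth muscle, macrophage and thick ascending limb markers were instead the lowest of the 4 (17.3, 129.6 and 35771 TPM). Yet 2 of the 8 smooth muscle markers reached 1 TPM in that replicate, against 1 in each other sham replicate. Without that replicate the Tagln change was 1.43, with an adjusted p of 0.105, the lowest over all settings (highest 0.853). The part of these cells was not tested. Myl9 had a log2 change of -0.66 (95% interval -2.04 to 0.72), and of -0.05 without that sham replicate (adjusted p = 0.964, from 0.210 to 0.964 over all settings). In cTAL too, red cell and proximal tubule sums were higher in UUO at 3 h, at 1834 to 11334 and 1366 to 2950 TPM against 29.8 to 3161 and 505 to 1103 TPM in sham, while endothelial sums were lower (17.0 to 41.7 against 47.7 to 190.2 TPM). The highest Csrp1 value, 1698 TPM in UUO replicate 3, stood with the lowest proximal tubule sum of its arm a red cell sum of 3046 TPM and the highest macrophage sum of its arm (173.8 TPM), whose part was not tested.

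Whether the segments responded differently was tested on the difference between CCD and cTAL within each number. At 3 h 0 of 9 genes were called by limma, where 1.14% of 11084 genes were called. An unadjusted p under 0.05 was held by 3 of the 9 (Csrp1, Tagln and Myl9) and by 1611 of the 11084. For Myl9 the CCD minus cTAL difference in response was 1.36 (SE 0.51, adjusted p = 0.250). The CCD minus cTAL difference in response was -0.77 for Csrp1 (SE 0.22, adjusted p = 0.128) and -0.56 for Zyx (SE 0.33, adjusted p = 0.492). Without UUO replicate 4 that of Csrp1 was -0.98 and called (adjusted p = 0.0361, from 0.0361 to 0.275 over all settings). In the fit with all replicates their 95% intervals ran from -1.25 to -0.29 and from -1.30 to 0.18. For Tagln the difference was 2.31 (SE 0.48, adjusted p = 0.0537), just short of the threshold. This value passed with a pseudocount of 0.1, with a filter of 5 TPM and with the CCD libraries rich in Umod left out (adjusted p = 0.0418, 0.0470 and 0.0408). It did not pass with rescaling (0.0615) or in any of 8 fits that each left out a replicate, and over all settings the adjusted p ran from 0.0408 to 0.139. At 30 min 0 of 10 genes were called, and 0 of all 12075 genes tested. An unadjusted p under 0.05 was held by 1 of the 10 (Actn1, difference -0.69) and by 1792 of the 12075.

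The change from 30 min to 3 h was tested as the difference between the UUO minus sham changes at both times. In CCD that of Zyx was larger at 3 h by 1.69 (SE 0.33, adjusted p = 0.0248), since Zyx had been at 9.46 ± 2.54 TPM in sham and 6.15 ± 2.33 TPM in UUO at 30 min. Of 16 fits that each left out a replicate, 7 did not give this call (adjusted p from 0.0119 to 0.0750 over all settings). It was the only 1 of 9 genes called, where 1.49% of 10203 genes were called, 1.22% as larger. Csrp1, at 1.43, and Tagln, at 1.88, were not called (adjusted p = 0.0994 and 0.220), though Csrp1 was without UUO 3 h replicate 1 (0.0447, from 0.0447 to 0.221 over all settings). In cTAL that of Csrp1 was larger at 3 h by 2.14 (SE 0.23, adjusted p = 2.22e-04), a call kept in all 16 such fits. There 1 of 8 genes was called, where 2.81% of 9641 genes were called, 0.965% as larger. Zyx had a difference of 1.76 in cTAL (SE 0.47, adjusted p = 0.0573), which passed with median-of-ratios rescaling and with a filter of 5 TPM (adjusted p = 0.0232 and 0.0453) and in 1 of 16 fits that each left out a replicate (without UUO 30 min replicate 4, 0.0329). Over all settings its adjusted p ran from 0.0232 to 0.130. The tables of both times were quantified apart, so each change was formed within its own table.

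The wider pathway was read from 9 lists holding 82 further genes. An unadjusted p under 0.05 at 30 min was held by 10 of 73 in CCD, where 1789 of all 11369 genes tested held one. In cTAL it was held by 5 of 69, where 250 of all 10993 did. By limma none of these pathway genes was called at 30 min, 0 of 73 in CCD and 0 of 69 in cTAL. At 3 h 11 of 71 had risen and 2 had fallen in CCD, where 5% of all genes tested were called higher and 8.04% lower. In cTAL 11 of 68 had risen and 3 had fallen, where 4.06% were called higher and 7.64% lower. The same shares are the background for each list that follows, with few genes a list. The medians of these genes were 0.07 in CCD and 0.16 in cTAL (0.21 and 0.31 rescaled), beside -0.14 and -0.12 for all genes tested. Among the lists, each of which includes the named 10 where they belong, focal adhesion genes had 3 of 13 higher in CCD, and 2 of 14 higher and 1 lower in cTAL. Zyx and Csrp1 were among the risers in CCD and were the only risers in cTAL.

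SRF itself was at or under 1 TPM and was not tested at 3 h, with means of 0.534 TPM in CCD sham, 0.728 TPM in CCD UUO, 0.460 TPM in cTAL sham and 0.613 TPM in cTAL UUO. Of its cofactors Elk3 fell in cTAL, from 3.46 ± 1.59 to 0.548 ± 0.356 TPM (log2 change -1.47, SE 0.34, adjusted p = 0.0231). It reached 1 TPM in 4 sham and 1 UUO replicates, so it entered the test mainly through the sham arm. Endothelial marker sums were also lower in cTAL UUO at 3 h, at 26.4 ± 11.1 TPM against 99.3 ± 63.2 TPM in sham. The part of endothelial cells in the Elk3 values was not tested. In CCD the smallest p belonged to Elk1, with a log2 change of -0.45 that was not called (adjusted p = 0.163). The cofactor gene Mrtfa was at 1.501 and 1.45 TPM in CCD sham and UUO. Among the immediate early SRF targets none was called at 30 min, of 9 tested in CCD and 7 in cTAL. Their median log2 change at 30 min was -0.39 in CCD and 1.65 in cTAL, beside -0.31 and -0.07 for all genes tested. At 3 h 2 of 8 rose in CCD and 4 of 7 in cTAL (all genes 5% and 4.06% higher). Ccn2, a secreted matricellular protein, rose in both segments, from 2.49 ± 0.717 to 19.1 ± 4.41 TPM in CCD and from 2.67 ± 1.27 to 20.9 ± 7.45 TPM in cTAL. The related Ccn1 rose in CCD, from 0.115 to 2.99 TPM, and was below the filter in cTAL, at 0.0275 and 0.975 TPM. In CCD it reached 1 TPM in 4 UUO and 0 sham replicates, so it entered the test, and the count above, through the UUO arm. The same holds in part for Egr1 in cTAL and Tpm2 in CCD, each at 1 TPM or more in 4 UUO and 2 sham replicates. The transcription factor genes Fos, Junb and Egr1 rose in cTAL, by 4.55, 3.56 and 2.29 on the log2 scale (adjusted p = 0.00515, 0.0146 and 0.00979). In CCD they had changes of 0.54, -0.13 and -0.06, none called, from sham levels of 354 ± 277, 444 ± 158 and 18.2 ± 6.65 TPM. Those sham levels in cTAL were 8.54 ± 11.7, 16.1 ± 10.6 and 1.00 ± 0.503 TPM. The difference between segments was called for Fos (-4.01, adjusted p = 0.0454) and Junb (-3.69, adjusted p = 0.0251) and not for Egr1 (-2.35, adjusted p = 0.0841).

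Rnd3, an atypical GTP-binding protein, went from 15.1 ± 2.31 to 35.04 ± 4.52 TPM in CCD and from 2.87 ± 2.23 to 20.3 ± 4.26 TPM in cTAL (adjusted p = 0.00499 and 0.0115). Cdc42ep3, an effector of Cdc42, rose in CCD (log2 change 1.18, adjusted p = 0.0188). In the assembly and turnover list 3 of 16 rose and 1 fell in CCD, and 2 rose and 1 fell in cTAL. Cfl2, a cofilin that severs filaments, rose in both segments (0.91 and 1.41), as did Tmsb10, which holds actin monomers (0.78 and 0.48). Arpc5, a subunit of the Arp2/3 complex that branches filaments, rose in CCD from 227 ± 10.6 to 324 ± 35.1 TPM, and Capg, a capping protein, fell in both (-1.75 and -1.84, adjusted p = 0.0427 and 0.0329).

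In the list of crosslinkers and tropomyosins 3 of 14 rose in CCD, Tagln among them, and 1 of 13 in cTAL (all genes 5% and 4.06% higher). Tpm2 rose in CCD, from 1.25 ± 0.870 to 8.05 ± 5.38 TPM (log2 change 1.82, adjusted p = 0.0300), and Tpm4 rose in cTAL, from 93.5 ± 27.0 to 166 ± 30.8 TPM (0.85, adjusted p = 0.0422). For Tpm4 the difference between segments was itself called (-1.10, adjusted p = 0.0427), and tropomyosin genes share exons of like sequence, so their reads may be divided with error. Tagln2, the relative of Tagln found in epithelia and blood cells, rose in CCD by 0.44 (adjusted p = 0.0321), from 452 to 619 TPM. Vasp, a partner of zyxin that lengthens filaments, rose in CCD by 0.83 (adjusted p = 0.0186), and Ilk, the integrin-linked kinase, fell in cTAL by 0.44 (adjusted p = 0.0400). In the motor list 1 of 6 rose in CCD and 1 of 5 in cTAL, in both cases Myl12a, the regulatory light chain of non-muscle myosin, which went from 603 ± 47.4 to 885 ± 153 TPM in CCD and from 443 ± 50.8 to 839 ± 95.2 TPM in cTAL (adjusted p = 0.0277 and 0.00274). It is close in sequence to Myl9, which stood at 14.6 to 35.5 TPM on average in the 4 groups at 3 h. The membrane linkers had none of 6 called in either segment, with Msn of smallest p in CCD (0.77, adjusted p = 0.240) and Rdx in cTAL (0.63, adjusted p = 0.454), both of which tie filaments to membrane proteins. None of 3 actin isoforms tested in CCD or of 2 in cTAL was called. Of the muscle actins only Acta1 passed the filter in CCD, with a change of 0.53 that was not called (adjusted p = 0.456).

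Genes tested in both segments numbered 75 with the 10 included, and 8 were called in each segment, all 8 in the same direction, with Capg lower and Ccn2, Cfl2, Csrp1, Myl12a, Rnd3, Tmsb10 and Zyx higher. A call in 1 segment alone is not a shown difference between segments, and in this set that difference was called for Fos, Junb and Tpm4 only.

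The genes most like Zyx, Csrp1 and Tagln were sought over 16 replicate values at 3 h, 4 in each arm and segment, among 9468 genes tested in both segments. These values share the large difference between arms, so Pearson's r of log2(TPM + 1) describes them with no test. Zyx and Csrp1 had an r of 0.77 with each other. Most like Zyx were Fkbp5 (r = 0.94), a chaperone induced by glucocorticoids, Txnrd1 (r = 0.93), a thioredoxin reductase, and Ifrd1 (r = 0.93), a transcriptional coregulator. Closest to Csrp1 were Bnip3 (r = 0.94), a mitochondrial protein induced by low oxygen, LOC298795 (r = 0.94) and Rassf1 (r = 0.93), a scaffold that binds microtubules. For Tagln the nearest were Map3k7cl (r = 0.90), Serping1 (r = 0.90), which inhibits the C1 complex of complement, and Plat (r = 0.88), tissue plasminogen activator, a gene of endothelium and other cells.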

How the data were processed

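RNA was measured in 48 libraries of dissected tubules, 2 per number in CCD and 1 in cTAL; 8 whole-kidney samples were not analysed here. Per the labels' protocols, cDNA was made from polyA RNA with a SMARTer kit and libraries with Nextera XT. The authors deposited TPM per gene in 2 tables, and the submitters' processing notes name STAR 2.7.3, RSEM 1.3.3 and Rnor_6.0; how strand was handled is not given in the sources used here. TPM keep no depth, so no count test was used.

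For CCD the log2 values of both libraries of each number were averaged (TPM were averaged for display). limma 3.58.1 in R 4.3.3 (moderated, with mean-variance trend) was run on log2(TPM + 1) for genes that reached 1 TPM in 4 or more of 8 replicates, with Benjamini-Hochberg adjustment over all genes tested and a threshold of 0.05. Fold changes on this scale understate those of low genes. The fits were tested on simulated data in which few genes were changed and each gene varied independently of the others. Simulated log2 changes of 1 between UUO and sham were called for 23.4% of such genes in CCD and 38.1% in cTAL at 30 min. At 3 h the shares were 54.0% and 35%. For segment differences of 1 they were 4.62% at 30 min and 11.1% at 3 h. The real fits at 3 h called 1373 genes in CCD and 1173 in cTAL, far more than were changed in the simulation. The shares found by those fits may therefore differ from the simulated ones. A gene that was not called may thus still have changed. All 10 genes entered every comparison in which they passed the filter, though not every one is named in each. Up to 4 called genes of each pathway list were named by smallest p (or, where none was called, the 1 with the smallest p). The 3 genes of highest r with each of the 10 that was called were also named. Other genes, such as Srf, Mrtfa and the markers, were named after their values were seen. The 10 genes and all lists were chosen with earlier results of these data known. The counts and some genes of 1 pathway list are not reported here. Symbols not matched were Mrtfb, Palld, Mcl1 and Pecam1. Promoters came from RefSeq (GRCr8), a build other than that of the tables.

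Same-numbered UUO and sham samples deviated together in CCD at 30 min (r = 0.12 to 0.23 in 4 of 4 pairs), a hint from the data that numbers pair the samples there. The values printed come from the fit without the block; adding the block changed no call of the 10 genes in that comparison. In the other 3 comparisons they did not (r = -0.23 to 0.18).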

Additional observations from a re-analysis of the deposited data

Results flagged for a closer look

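In 4 of 80 groups of 4 replicates that were checked, 1 value lay so far from the other 3 that its gap to the nearest, as a share of the range, exceeded Dixon's 95% critical value. Chance gives about 1 such group in 20. These values were Vcl in cTAL sham replicate 4 at 3 h (lowest, 0.63 TPM), Tpm1 in cTAL UUO replicate 1 at 3 h (lowest, 59.5 TPM), Tagln in cTAL sham replicate 1 at 3 h (highest, 36.29 TPM) and Csrp1 in cTAL sham replicate 3 at 30 min (highest, 372.06 TPM). The response to obstruction differed between 30 min and 3 h by the test of the difference for Zyx in CCD (1.69 on the log2 scale, lost in 7 of 16 fits without 1 replicate) and for Csrp1 in cTAL (2.14, kept in all 16).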

How the results depend on the processing

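None of the results for the 10 genes that was called changed sign under any setting tried. Of these results under all settings, 1202 kept their direction and side of the threshold, 15 gained and 13 lost the call, and 89 uncalled ones changed sign. In CCD at 30 min 1 gene was called with a filter of 5 TPM, 956 with library 1 of each number alone (7 higher, 949 lower) and 1 with library 2 alone, beside 3 with both. Counts in CCD at 3 h were 852 with no filter, 676 with library 1 and 490 with library 2, beside 1373, and in cTAL at 3 h 760 with no filter, beside 1173. The segment difference at 3 h had 77 calls with a pseudocount of 0.1 and 20 with no filter, beside 126, and the time difference in CCD 75, 83 and, with a filter of 5 TPM, 86, beside 152. Chosen after seeing the data, taking CCD UUO number 2 at 30 min from its library 1 alone gave 149 calls in the segment difference and 285 in the time difference in CCD. Causes of these shifts were not tested.

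Leaving out 1 replicate gave 1 to 2 calls in CCD and 0 to 1 in cTAL at 30 min, 458 (without sham replicate 2) to 1596 in CCD and 439 (without sham replicate 2) to 988 in cTAL at 3 h, and 1 to 4 of the 10 genes in CCD at 3 h. It gave 0 to 680 and 18 to 108 calls in the segment difference at 30 min and 3 h, 27 to 190 and 144 to 319 in the time difference in CCD and cTAL, and 4354 to 5305 and 2218 to 3073 between the sham segments.

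With the replicate block, which the data support only for CCD at 30 min, 770 genes were called in CCD and 580 in cTAL at 3 h, and 29 in the segment difference at 3 h. In CCD at 30 min, the block together with that choice for UUO number 2, also made after the data were seen, gave 500 (5 higher, 495 lower). The block changed 1 call of the 10 genes, Actg1 in CCD at 3 h. Depth cannot be recovered from TPM, so the precision of genes near 1 TPM (Actn1, Flna, Tagln, Srf) is unknown.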
